A study of Mus musculus with 12 samples.

Results

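The 38 genes described here belong to the unfolded protein response and the integrated stress response. They were taken by symbol from a list of endoplasmic reticulum (ER) chaperones, ER degradation factors and components of the ATF6, IRE1-XBP1 and PERK-ATF4 branches, and all 38 were found among the 34986 genes of the deposited table. By role they fall into 15 chaperones and folding enzymes, 8 factors of ER-associated degradation, 5 sensors and membrane-bound or sensor-activated transcription factors, and 10 genes of the PERK-ATF4 arm and the integrated stress response. All 38 passed the filter on low values (a normalized count of 1 or more in 6 or more libraries) and entered the tests.

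The livers came from 12 female C57BL/6 mice aged 16 weeks, 1 library each, and all 12 mice received valproic acid (VPA), an antiepileptic with known liver toxicity. The 6 mice of the VPA group received VPA, and the 6 of the VPA_OCA group received VPA with obeticholic acid (OCA), an agonist of the bile acid receptor FXR. The labels give no genotype beyond the strain, and they state neither dose, vehicle nor duration. Untreated mice were not analysed here, and every difference below is that of VPA_OCA from VPA. Because bulk liver was sequenced, fewer cells of a type and less RNA per cell cannot be told apart.

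Proteins destined for secretion fold in the ER with the help of lumenal chaperones, and the liver, which makes most plasma proteins, carries a heavy folding load. When unfolded proteins accumulate, ATF6 is cleaved into an active transcription factor, IRE1 (Ern1) splices Xbp1 mRNA, and PERK (Eif2ak3) phosphorylates eIF2α, which lowers general translation and favours that of ATF4. The first pair of branches are known for inducing chaperones and degradation factors, and ATF4 for inducing amino acid, redox and pro-apoptotic genes such as Asns, Chac1 and Ddit3. Counts per gene do not show Xbp1 splicing, ATF6 cleavage, eIF2α phosphorylation or any protein.

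Libraries summed to 20236900 to 22087711 normalized counts. Depths, estimated as this total over the commonest low value, were 17879222 to 22021646 reads except in VPA_OCA replicate 1, at 37766890. In both groups the libraries numbered 1 to 3 stood apart from those numbered 4 to 6: 25.1% of the 19006 genes tested differed between these number sets by limma with Benjamini-Hochberg adjustment, and mitochondrial transcripts made up 9.09% to 11.7% of the total in the former and 5.84% to 7.51% in the latter. The labels name no batch and do not say what the numbers stand for. The comparison of the members between the groups is therefore given with the group alone and with a term for the number set. The summed level of the 4 hepatocyte markers found, of 5 listed, was 94408 to 154472 FPKM in the 12 libraries. The summed markers of pancreatic acinar cells, a cell type rich in ER chaperones, reached 4.32 FPKM at most, and those of plasma and B cells reached 30.6 FPKM in VPA and 29.1 in VPA_OCA. Summed skeletal muscle markers were 0.472 to 24.1 FPKM in VPA (median 1.365) and 1.32 to 2.15 in VPA_OCA (median 1.64). The highest sum was in a library numbered 4 to 6, and its part in the members' differences was not tested. With the group alone, no tested marker of the 10 cell types examined passed between the groups, where 0.721% of all genes did. The markers were not examined between the groups with the number-set term, so a change in cell types was not tested in that fit.

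Chaperone and degradation genes are known to carry ER stress response elements (ERSE, searched as CCAAT, any 9 bases and CCACG, and ERSE-II, searched as ATTGG, any 1 base and CCACG) near their starts, and several ATF4 targets carry a C/EBP-ATF response element (CARE, searched as TGATGNAA). Both strands of the RefSeq promoters of build GRCm38.p6 were searched, from 250 bases before to 50 after each start. An entry was found for 34 of the 38 genes, and Atf6, Derl1, Hyou1 and Manf had none. ERSE was found at 9 of these 34 genes (Hspa5, Hsp90b1, Calr, Canx, Pdia6, Dnajc3, Creld2, Syvn1 and Derl3) and in 0.119% of the 32851 promoters of the table. ERSE-II was found at Dnajb11 and Herpud1 and in 0.0365% of promoters. CARE was found at Asns, Atf3, Chac1, Nupr1, Trib3 and Herpud1 and in 3.97% of promoters. The XBP1 element TGACGTGG, in 0.676% of promoters, was found at 0 of the 34, and Xbp1 itself matched no search. A match describes letters in this window and does not show binding. The sites below show each element at genes from the chaperone, degradation and PERK-ATF4 groups, read in the direction of the motif, with the searched element in capitals. Not shown are the ERSE-II of Dnajb11, the ERSE of Dnajc3 and Derl3 and the CARE of Herpud1, Trib3 and Asns.
Hspa5 ERSE, chr2:34772020-34772048, plus strand: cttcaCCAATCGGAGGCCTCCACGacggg
Hsp90b1 ERSE, chr10:86705633-86705661, minus strand: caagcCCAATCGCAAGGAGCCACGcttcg
Hsp90b1 ERSE, chr10:86705528-86705556, plus strand: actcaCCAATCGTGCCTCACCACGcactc
Calr ERSE, chr8:84847070-84847098, plus strand: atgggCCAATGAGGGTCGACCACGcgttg
Canx ERSE, chr11:50325795-50325823, minus strand: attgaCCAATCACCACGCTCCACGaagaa
Pdia6 ERSE, chr12:17266486-17266514, plus strand: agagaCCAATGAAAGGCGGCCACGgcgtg
Creld2 ERSE, chr15:88819515-88819543, minus strand: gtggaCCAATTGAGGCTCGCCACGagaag
Syvn1 ERSE, chr19:6046527-6046555, plus strand: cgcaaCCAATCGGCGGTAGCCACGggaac
Herpud1 ERSE-II, chr8:94386372-94386392, plus strand: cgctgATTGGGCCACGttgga
Chac1 CARE, chr2:119351044-119351061, minus strand: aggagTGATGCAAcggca
Nupr1 CARE, chr7:126625568-126625585, plus strand: ctgtcTGATGCAAtctgg
Atf3 CARE, chr1:191183431-191183448, plus strand: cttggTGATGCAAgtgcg
Counted from the RefSeq start, the ERSE of Canx lies 126 bases before it and that of Hspa5 46, while the CARE of Chac1 lies 185 bases before its start on the opposite strand. The deposited table places the start of Hspa5 further upstream, so that this ERSE lies inside the gene position printed for Hspa5. The CARE of Nupr1 and Atf3 likewise lie inside the deposited gene positions, chr7:126623249-126630861 and chr1:191170296-191218039, as does that of Asns.

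On the scale of FPKM, which divides by gene length, the chaperones were the most abundant of the 4 role groups, with a median level of 71.3 FPKM. P4hb, a disulfide isomerase and the beta subunit of collagen prolyl hydroxylase, had the highest level of the 38 at 986 FPKM. The ER form of HSP90 (Hsp90b1), the calcium-binding lectin calreticulin (Calr) and BiP (Hspa5) followed within that group at 331, 305 and 233 FPKM. Degradation genes had a median of 44.0 FPKM, led by Herpud1 at 292, and Derl3 stood lowest among them at 1.13. Among sensors and transcription factors, the liver-enriched Creb3l3 (279 FPKM) and Xbp1 (129.9) lay far above Atf6 (12.7), Ern1 (12.2) and Eif2ak3 (5.24). The PERK-ATF4 group was the least abundant with a median of 4.18 FPKM, although Atf5 reached 145 and Atf4 46.9. Its typical stress-induced members were low, with Ddit3 at 6.44, Chac1 at 1.56, Atf3 at 1.35 and Asns at 0.205 FPKM.

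**Figure D1:**
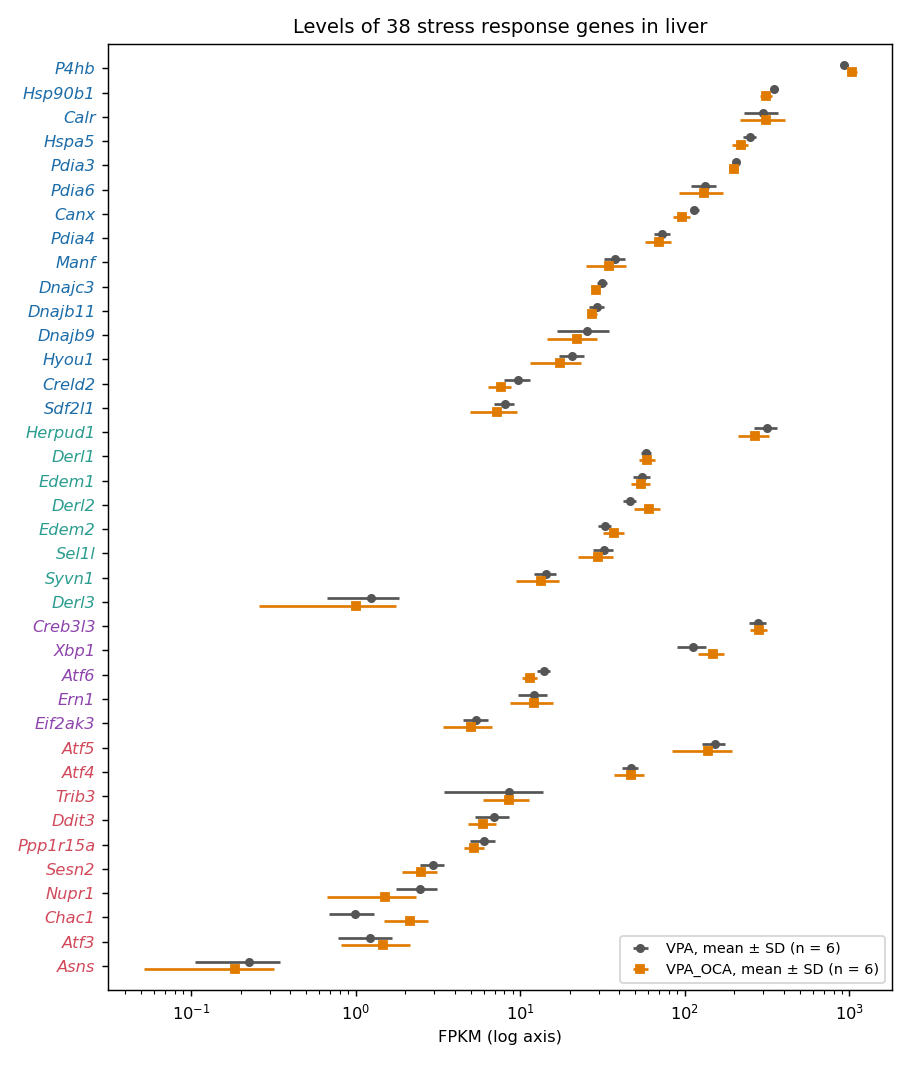
Mean level ± SD (n = 6) of each of the 38 genes in VPA (grey circles) and VPA_OCA (orange squares), in FPKM on a log axis. Gene names are coloured by role (blue chaperones, green degradation, purple sensors and transcription factors, red PERK-ATF4 genes), and levels run from 0.205 FPKM for Asns to 986 FPKM for P4hb.

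Addition of OCA was accompanied by higher mRNA of Xbp1 and Chac1 and lower mRNA of Canx and Atf6 once the number set was a term of the model, and no other member passed in that fit. Fold changes were computed from log2(normalized count + 1), so those of low genes are understated, and positions are those of the deposited table on build GRCm38.p5. With the group alone in the model, 0 of the 38 passed an adjusted p of 0.05 by limma, where 0.721% of all 19006 genes did. At an unadjusted p under 0.05 there were 8 of 38 (Hspa5, Canx, Creld2, Derl2, Xbp1, Atf6, Nupr1 and Chac1), where 9.55% of all genes were that low. The log2 difference was negative for 28 of the 38 genes, with a median of -0.16, beside a median of -0.0005 over all genes, of which 49.9% were positive. It was negative for 13 of 15 chaperones (median -0.17), 5 of 8 degradation genes (-0.10), 3 of 5 sensors and transcription factors (-0.04) and 7 of 10 PERK-ATF4 genes (-0.20).

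With the number-set term, 4 of the 38 genes passed (10.5%), where 2.13% of all genes did. Xbp1 and Chac1 rose, as did 1.34% of all genes, and Canx and Atf6 fell, as did 0.789%. With a block for each replicate number, 1 of the 38 passed, Xbp1, where 1.1% of all genes did. In the authors' deposited table, 5 of the 36 members they call present had an adjusted p under 0.05, where 5.57% of their 12517 present genes did. Those p-values come from the authors' own test, whose model terms are not known here. Their count is therefore not like for like with the limma counts, with or without the term. By that table Chac1, Xbp1 and Derl2 were higher in VPA_OCA (3.34% of present genes were) and Atf6 and Creld2 lower (2.23%). The 6 libraries of one group lay wholly apart from those of the other for 3 members (Chac1, Canx and Atf6), and for 1.44% of all genes.

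**Figure D2:**
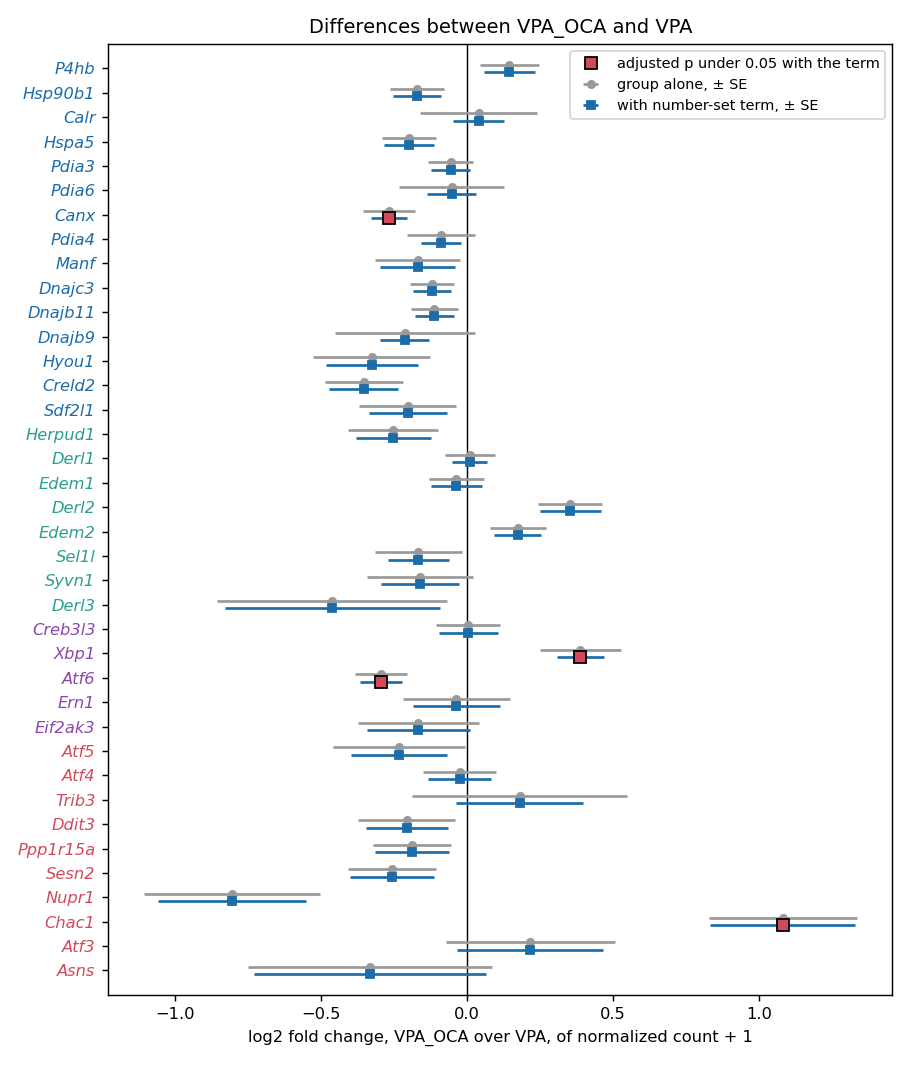
Log2 fold change ± SE of VPA_OCA over VPA for each of the 38 genes, computed from log2(normalized count + 1), in the fit with the group alone (grey) and with the number-set term (blue), with names coloured by role as in the plot of levels. Red squares mark the 4 genes with an adjusted p under 0.05 with the term, Canx and Atf6 to the left of 0 and Xbp1 and Chac1 to the right.

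Among the sensors and their transcription factors, Xbp1 rose and Atf6 fell with the term, and Ern1, Eif2ak3 and Creb3l3 did not pass. Xbp1 (ENSMUSG00000020484, chr11:5520659-5525893, plus strand), whose spliced mRNA encodes the main transcription factor of the IRE1 branch, ranged from 2412 to 4090 in VPA (median 2966) and 3315 to 4958 in VPA_OCA (median 3739) on the scale of normalized counts. VPA replicates 5 and 6, at 4090 and 3397, lay within the VPA_OCA range, and 2 VPA_OCA libraries lay above every VPA library. The log2 fold change of Xbp1 was 0.39 ± 0.14 (SE), or 1.31-fold higher in VPA_OCA. By limma its adjusted p was 0.327 with the group alone, 0.0188 with the number-set term and 0.0272 with the replicate block. Xbp1 was also higher in numbers 4 to 6 than in 1 to 3, and within the sets its log2 differences were 0.41 and 0.37. Its call with the term was lost when VPA 1, VPA 6, VPA_OCA 1 or VPA_OCA 5 was left out, with adjusted p-values up to 0.0589, and in limma without an intensity trend (0.0797).

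Atf6 (ENSMUSG00000026663, chr1:170704674-170867771, minus strand), the gene of the sensor that is itself cleaved into a transcription factor, ranged from 1290 to 1618 in VPA (median 1343) and 955 to 1265 in VPA_OCA (median 1159). Every VPA_OCA library lay below every VPA library. The log2 fold change was -0.29 ± 0.09 (1.23-fold lower), with a limma adjusted p of 0.201 with the group alone, 0.0472 with the term and 0.124 with the replicate block. The call with the term held without VPA replicate 4 or 5 and was lost without any of the other 10 libraries, with adjusted p-values up to 0.135, and with a correction for GC content (0.0624). It was also lost with no filter on low values (0.0559), with total-count rescaling (0.0865), without an intensity trend (0.136) and on FPKM values (0.0961). Ern1, the gene of IRE1, measured 704 ± 120.5 normalized counts in VPA and 704 ± 200.5 in VPA_OCA (mean ± SD, n = 6). Eif2ak3, the gene of PERK, ranged from 161 to 259.9 in VPA (median 224) and 106 to 272 in VPA_OCA (median 219), and its adjusted p was 0.877 by limma. Creb3l3, which encodes an ER-tethered factor that acts in hepatic lipid metabolism and the acute phase response, ranged from 5506 to 7597 in VPA (median 6261) and 5158 to 7153 in VPA_OCA (median 6517), with a log2 difference of 0.00 ± 0.11. The groups overlapped for these 3 genes.

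**Figure D3:**
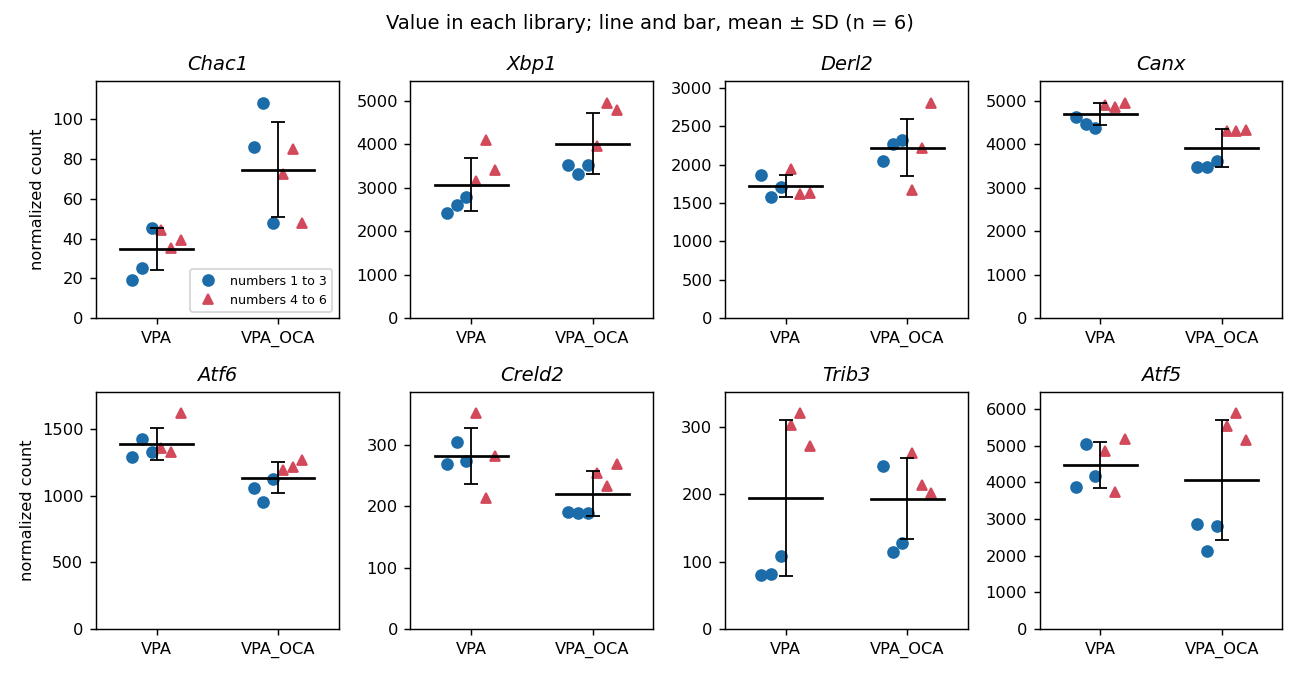
Normalized count of 8 members in each library, by group, with libraries numbered 1 to 3 as blue circles and those numbered 4 to 6 as red triangles, and the line and bar giving the mean ± SD (n = 6). Chac1, Canx and Atf6 show no overlap between the groups. Xbp1 and Canx split by number set in both groups, Trib3 in VPA alone, and Atf5, Atf6 and Creld2 in VPA_OCA alone.

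Among the 15 chaperones and folding enzymes, only Canx passed with the term. Canx (ENSMUSG00000020368, chr11:50293961-50325673, minus strand) encodes calnexin, the membrane-bound lectin that retains glycoproteins for folding, and it ranged from 4374 to 4963 in VPA (median 4740) and 3473 to 4340 in VPA_OCA (median 3969.5). The groups did not overlap, and both split by number set. The values for numbers 1 to 3 and 4 to 6 were 4374 to 4620 and 4860 to 4963 in VPA, and 3473 to 3630 and 4309 to 4340 in VPA_OCA. Its log2 fold change was -0.27 ± 0.09 (1.2-fold lower), with a limma adjusted p of 0.274 with the group alone, 0.0322 with the term and 0.141 with the replicate block. The call with the term held without VPA replicate 4, VPA replicate 5 or VPA_OCA replicate 2 and was lost without any of the other 9 libraries, with adjusted p-values up to 0.0874. It was also lost without VPA replicates 4 and 5 together (0.0524), with total-count rescaling (0.0546) and in limma without an intensity trend (0.0838).

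None of the most abundant chaperones passed. Hspa5 (ENSMUSG00000026864, chr2:34771970-34777547, plus strand), the gene of the HSP70 chaperone BiP that also holds the sensors inactive, ranged from 6700 to 8438 in VPA (median 7392) and 5862 to 7484 in VPA_OCA (median 6465). Of the VPA_OCA libraries, 3 lay below every VPA library. Its log2 difference was -0.20 ± 0.09, with an unadjusted p of 0.0494 and an adjusted p of 0.521 by limma. Hsp90b1 ranged from 10900 to 13260 in VPA (median 12270) and 9912 to 12260 in VPA_OCA (median 10615), a log2 difference of -0.17 ± 0.09. Calr, the lumenal relative of calnexin, ranged from 5244 to 9459 in VPA (median 7644) and 5271 to 10970 in VPA_OCA (median 7524), with much of that spread between the number sets. P4hb was one of the 2 chaperone genes with a positive difference, the other being Calr, and ranged from 25390 to 28010 in VPA (median 27100) and 27370 to 32690 in VPA_OCA (median 28985). For P4hb 5 of 6 VPA_OCA libraries lay above every VPA library, with a limma adjusted p of 0.733.

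The most negative differences among the chaperones were those of Creld2 and Hyou1. Creld2, which encodes an ER-resident disulfide isomerase, ranged from 213 to 352 in VPA (median 278) and 188 to 269 in VPA_OCA (median 212), and 3 VPA_OCA libraries lay below every VPA library. Its log2 difference was -0.35 ± 0.13, with a limma adjusted p of 0.362 with the group alone and 0.164 with the term. With the term Creld2 passed without VPA replicate 5 (0.0193) and without VPA replicates 4 and 5 (0.0478). Hyou1, an ER nucleotide exchange factor of the HSP70 family, ranged from 906 to 1387 in VPA (median 1158) and 554 to 1330 in VPA_OCA (median 1006), and its lowest values, 554 and 621, were those of VPA_OCA replicates 2 and 1. Dnajb9, a DNAJ cochaperone of BiP, ranged from 483 to 1050 in VPA (median 794) and 444 to 988 in VPA_OCA (median 652). Pdia4 and Pdia6, disulfide isomerases, ranged from 1944 to 2435 in VPA (median 2080.5) and 1613 to 2413 in VPA_OCA (median 2038) and from 2585 to 3926 in VPA (median 3376) and 2310 to 4628 in VPA_OCA (median 3086), respectively. The other 5, Pdia3, Dnajb11, Dnajc3, Sdf2l1 and Manf, had log2 differences from -0.20 to -0.06 and none passed. In VPA and VPA_OCA, Pdia3 measured 5079 ± 218 and 4888 ± 315 normalized counts, Dnajb11 905 ± 72.4 and 837 ± 53.9, and Dnajc3 3454 ± 248 and 3173 ± 85.4. Sdf2l1 measured 190.2 ± 20.4 and 170.3 ± 53.7, and Manf 675 ± 85.6 and 612 ± 158 (mean ± SD, n = 6). Over the 15 chaperones the median coefficient of variation was 9.36% in VPA and 16.3% in VPA_OCA. For all tested genes with a mean of at least 100 normalized counts, it was 13.7% and 15.9%.

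None of the 8 genes of ER-associated degradation passed, with or without the term. Derl2 (ENSMUSG00000018442, chr11:71007164-71019841, minus strand), which encodes a derlin that takes part in moving misfolded proteins out of the ER, came nearest and ranged from 1579 to 1946 in VPA (median 1671) and 1675 to 2809 in VPA_OCA (median 2245). VPA_OCA replicate 4, at 1675, lay within the VPA range and the other 5 lay above it. The log2 difference was 0.35 ± 0.11 (1.28-fold), with a limma adjusted p of 0.217 with the group alone and 0.104 with the term, and an adjusted p of 0.036 in the authors' deposited table. With the term it passed only when 1 library was left out, VPA_OCA replicate 4 (adjusted p 0.0193). Exons of Derl2 share 231 bases with Mis12 on the opposite strand, whose mean was 287 normalized counts against 1974 for Derl2, and the use of strand in counting is not stated.

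The other degradation genes had overlapping groups. Herpud1, a membrane protein of the ubiquitin ligase complex, ranged from 5532 to 9526 in VPA (median 7606) and 4537 to 8303 in VPA_OCA (median 6334), a log2 difference of -0.25 ± 0.15. Edem2, which trims mannose from misfolded glycoproteins, had a positive difference of 0.17 ± 0.10 with 709 to 871 in VPA (median 804) and 744 to 1083 in VPA_OCA (median 904). Its relative Edem1 ranged from 2745 to 3567 in VPA (median 3138) and 2649 to 3548 in VPA_OCA (median 3013). The ubiquitin ligase gene Syvn1 (HRD1) ranged from 605 to 915 in VPA (median 850.5) and 477 to 976 in VPA_OCA (median 833), and its adaptor Sel1l from 1636 to 2125 in VPA (median 1987) and 1119 to 2097 in VPA_OCA (median 1848). For both, VPA_OCA replicates 1 and 2 held the lowest values of all 12 libraries. Derl1 ranged from 2332 to 2698 in VPA (median 2517) and 2252 to 2882 in VPA_OCA (median 2510.5), a log2 difference of 0.01 ± 0.09. Derl3, the lowest of the 8, measured 20.6 ± 9.51 normalized counts in VPA and 16.6 ± 12.4 in VPA_OCA, and its highest values came from replicate 5 of each group.

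In the PERK-ATF4 arm the gene with the largest difference of all 38 was Chac1 (ENSMUSG00000027313, chr2:119351229-119354381, plus strand), which encodes a γ-glutamyl cyclotransferase that degrades glutathione. It ranged from 19.1 to 45.5 in VPA (median 37.2) and 47.7 to 108 in VPA_OCA (median 78.6) normalized counts. Every VPA_OCA library lay above every VPA library, although the gap was narrow, between 45.5 in VPA replicate 3 and 47.7 in VPA_OCA replicate 6. The log2 fold change was 1.08 ± 0.25 (2.12-fold higher), with a limma adjusted p of 0.0711 with the group alone, 0.0318 with the term and 0.104 with the replicate block. Its call with the term held when VPA 3, VPA 4, VPA_OCA 3 or VPA_OCA 6 was left out and was lost without any of the other 8 libraries, with adjusted p-values up to 0.0847. It was also lost without VPA replicates 4 and 5 together (0.0525), with no filter on low values (0.0576) and without an intensity trend (0.0988). In the authors' deposited table the adjusted p of Chac1 was 0.00179. Its mean level was low, at 1.56 FPKM.

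No other gene of this arm passed, with or without the term. Nupr1, a small stress-induced chromatin protein, had the largest negative difference and ranged from 31.7 to 67.4 in VPA (median 46.9) and 14.1 to 53.0 in VPA_OCA (median 20.8). Of the VPA_OCA libraries, 4 lay below every VPA library, and the other 2, replicates 5 and 6, lay within the VPA range at 40.8 and 53.0. The log2 difference of Nupr1 was -0.80 ± 0.30 (1.75-fold lower), with a limma adjusted p of 0.358 with the group alone and 0.136 with the term. Ddit3, the gene of the pro-apoptotic factor CHOP, measured 121 ± 28.1 in VPA and 104 ± 18.5 in VPA_OCA, and 68 of its exon bases are shared with the more abundant Mars on the opposite strand. Asns, asparagine synthetase, was barely detected, at 4.74 ± 2.5 and 3.86 ± 2.75 normalized counts. Sesn2, a stress-induced regulator of mTORC1, ranged from 179 to 254 in VPA (median 222) and 146 to 241 in VPA_OCA (median 172), a log2 difference of -0.26 ± 0.15.

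Atf4 itself, whose protein is mainly set by translation, ranged from 1489 to 2115 in VPA (median 1736) and 1393 to 2243 in VPA_OCA (median 1576), a log2 difference of -0.02 ± 0.13. Ppp1r15a (GADD34), the phosphatase subunit that reverses eIF2α phosphorylation, ranged from 187 to 309 in VPA (median 226) and 173 to 242 in VPA_OCA (median 208), a log2 difference of -0.19 ± 0.13. Atf3, an early stress-induced repressor, ranged from 25 to 61.1 in VPA (median 35.3) and 30.2 to 72.6 in VPA_OCA (median 36.0), a log2 difference of 0.22 ± 0.29. Atf5, a factor linked to mitochondrial stress, ranged from 3742 to 5191 in VPA (median 4516) and 2141 to 5889 in VPA_OCA (median 4016), and Trib3, a pseudokinase that binds AKT, from 80.2 to 320.1 in VPA (median 190.1) and 114 to 262 in VPA_OCA (median 207). Both overlapped between the groups. Atf5 split by number set in VPA_OCA alone, with 2141 to 2861 in numbers 1 to 3 and 5171 to 5889 in 4 to 6. Trib3 split in VPA alone, with 80.2 to 108 and 272 to 320.1. In this role group the median coefficient of variation was 26.2% in VPA and 31.5% in VPA_OCA, the highest of the 4. The group also had the lowest median level, 4.18 FPKM, and the part of low level in this spread was not tested.

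The 12 libraries can also be read by number set, which the group term does not cover. Across numbers 4 to 6 against 1 to 3, 12 of the 38 genes passed (31.6%, beside 25.1% of all genes), 11 higher and 1 lower in numbers 4 to 6, where 12.8% and 12.2% of all genes were. The median log2 difference of the 38 was 0.21, beside -0.02 for all genes. Calr was 5875 ± 573 normalized counts in numbers 1 to 3 and 9437 ± 911 in numbers 4 to 6, and Pdia6 was 2604 ± 273 and 3938 ± 370.1 (mean ± SD, n = 6). In the opposite direction, Dnajb9 was 932 ± 127 and 508 ± 51.2. For these 3 genes the sets did not overlap. Their log2 differences were 0.68 ± 0.09, 0.60 ± 0.08 and -0.87 ± 0.08, with limma adjusted p-values of 0.000208, 0.000301 and 7.28e-05.

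Trib3 had the largest log2 difference between the sets, 1.14 ± 0.22, from 126 ± 60.1 to 262 ± 47.2 normalized counts, with an adjusted p of 0.00164. Also higher in numbers 4 to 6 were Pdia4 (0.34), Canx (0.21), Hyou1 (0.46), Syvn1 (0.45), Sel1l (0.39), Derl1 (0.20), Xbp1 (0.42) and Atf5 (0.59) as log2 differences. Of the 12 calls, 9 were kept with each library left out in turn. The call of Hyou1 was lost without VPA 1, 4 or 6 or VPA_OCA 1, 2, 4 or 6 (adjusted p up to 0.105), that of Syvn1 without VPA 1 or VPA_OCA 1, 2, 4 or 5 (up to 0.0583) and that of Derl1 without VPA_OCA 1, 5 or 6 (up to 0.0641). With a GC correction Hyou1, Syvn1, Derl1 and Atf5 did not pass, with limma adjusted p-values of 0.142, 0.162, 0.0935 and 0.234, while Atf6 (0.0124) and Herpud1 (0.046) did. Without VPA 2 or 5 or VPA_OCA 1, 3 or 4, between 1 and 5 other members passed (Sdf2l1, Ern1, Atf3, Creld2, Herpud1, Eif2ak3, Ddit3 and Nupr1, each in at least 1 of these fits). The sets also did not overlap for Pdia4 and Derl1, which makes 5 of the 38, where 10.6% of all genes had no overlap. Of the 43 tested markers of the 10 cell types, 10 passed between the number sets (23.3%), beside 25.1% of all genes. These were 3 of 5 for Kupffer cells, 3 of 5 for stellate cells, 2 of 5 for endothelial cells, 1 of 4 for cholangiocytes and 1 of 8 for plasma and B cells, and 0 for hepatocytes, acinar cells, neutrophils, T cells and skeletal muscle. The part of these cells, or of the mitochondrial share, in the members' differences was not tested.

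**Figure D4:**
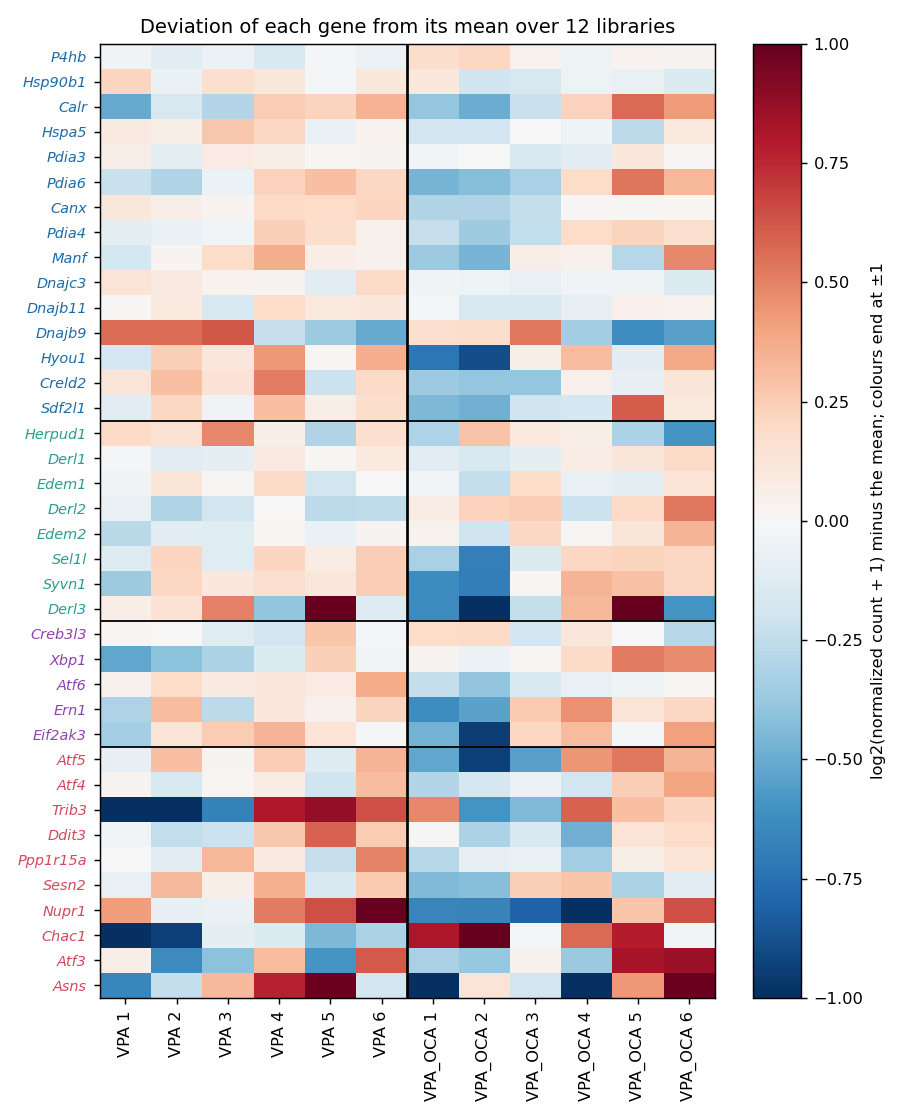
Deviation of log2(normalized count + 1) of each gene from its mean over the 12 libraries, red above and blue below, with VPA left and VPA_OCA right of the vertical line and horizontal lines between the 4 role groups. Colours end at ±1, and VPA_OCA 1 and 2 are blue in most chaperone and degradation genes while Dnajb9 is red in libraries numbered 1 to 3.

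By role, the mean deviation of the 15 chaperones from their own means was -0.21, -0.27 and -0.10 (log2) in VPA_OCA replicates 1, 2 and 3. It lay between 0.00 and 0.18 in the 6 VPA libraries and between 0.01 and 0.09 in VPA_OCA replicates 4 to 6. The 3 libraries with the lowest chaperone values were thus those of VPA_OCA numbered 1 to 3. For the 10 PERK-ATF4 genes the mean deviation was -0.29 to -0.07 in all 6 libraries numbered 1 to 3, and 0.13 to 0.36 in those numbered 4 to 6 except VPA_OCA replicate 4, at -0.19.

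Within numbers 1 to 3 (3 against 3 libraries), 29 of 38 genes were lower in VPA_OCA, with a median log2 difference of -0.21. The share of all genes with a negative difference is not given for the fits within a set. Such counts and medians therefore describe the members alone. The groups did not overlap for 13 members that were lower (beside 8.62% of all genes lower without overlap) and 5 that were higher (beside 9.99%). The 13 were Hspa5, Canx, Pdia4, Pdia6, Dnajb9, Dnajc3, Sdf2l1 and Creld2 of the chaperones, together with Sel1l, Derl3, Atf6, Atf5 and Nupr1. The 5 were P4hb, Derl2, Xbp1, Trib3 and Chac1. Within numbers 4 to 6, 21 of 38 were lower, with a median of -0.02. There, 6 members were lower without overlap (Hsp90b1, Canx, Dnajb11, Atf6, Ddit3 and Trib3, beside 7.31% of all genes) and 1 was higher (Chac1, beside 9.53%). Canx, Atf6 and Chac1, which are among both, have no overlap over all 12 libraries and so could have none within a set.

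Whether the difference between the groups itself differed between the sets was tested as an interaction, and 0 of the 38 passed, where 0.0105% of all genes did. At an unadjusted p under 0.05 there were 4, beside 8.36% of all genes. For Trib3, all 3 VPA_OCA values exceeded the VPA values within numbers 1 to 3 (log2 difference 0.77) and all 3 lay below them within numbers 4 to 6 (-0.41). The interaction of Trib3 was -1.18 ± 0.32 (SE), with an unadjusted p of 0.00262 and a limma adjusted p of 0.405. For Atf5 the differences were -0.75 and 0.28, with an unadjusted p of 0.000176 and an adjusted p of 0.186. Syvn1 (-0.43 and 0.10) and Sel1l (-0.37 and 0.03) were the other genes under an unadjusted 0.05.

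**Figure D5:**
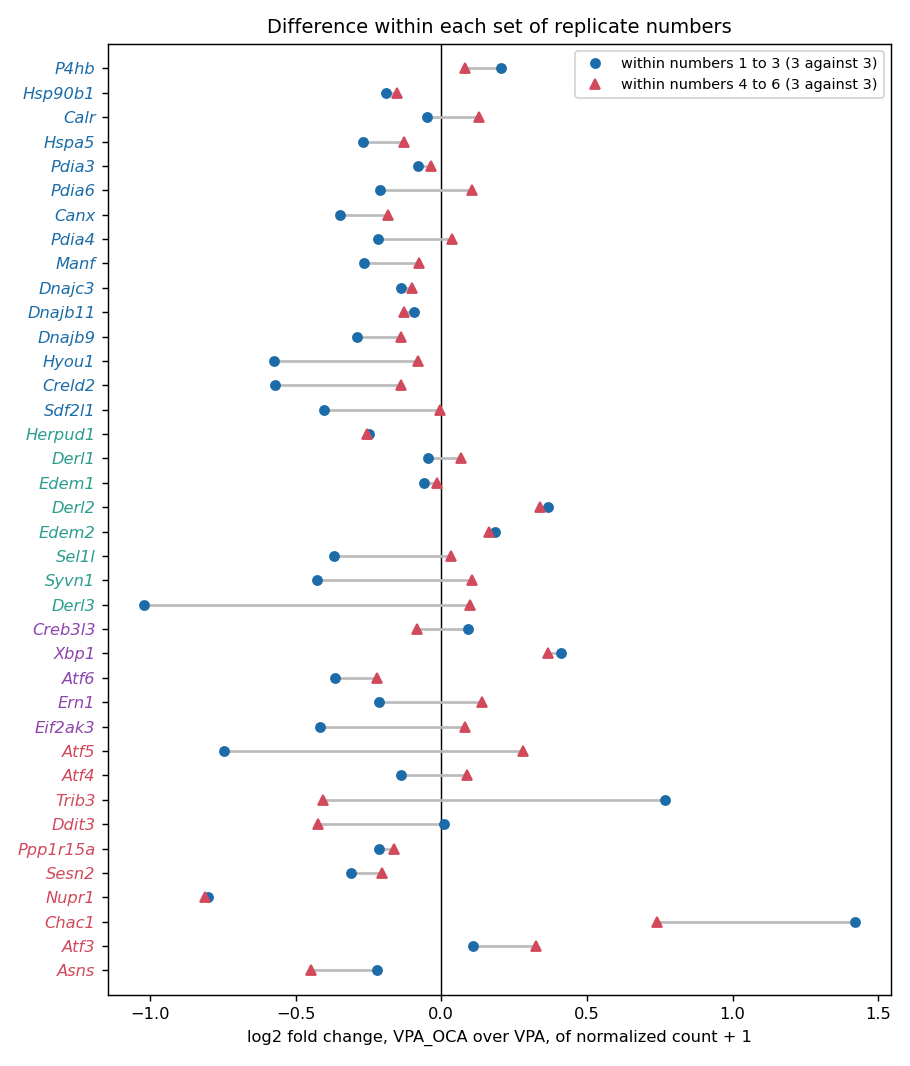
Log2 fold change of VPA_OCA over VPA within libraries numbered 1 to 3 (blue circles) and within those numbered 4 to 6 (red triangles), 3 libraries against 3 in each, for the 38 genes with names coloured by role. Xbp1, Derl2 and Nupr1 have nearly the same value in both sets, while Trib3 and Atf5 lie on opposite sides of 0.

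The 9 genes with an ERSE in the searched window had a median log2 difference of -0.17 between the groups, negative for 8 of 9. The 11 chaperone and degradation genes with a promoter entry but no ERSE had a median of -0.09, negative for 8 of 11. These counts describe genes that overlap the role groups above and were not tested against each other. Of the 6 genes with a CARE, Chac1 rose with the term, and Nupr1, Trib3, Atf3, Asns and Herpud1 did not pass.

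Another 126 genes of the same pathways, chosen for their known role, covered further folding enzymes, translocation and glycosylation, degradation, regulators and integrated stress response genes. Of the 125 that were tested (all but Ern2), 0 passed with the group alone by limma, beside 0.721% of all genes, and 10 had an unadjusted p under 0.05, beside 9.55%. Of the 125, 73 were negative, and the median log2 difference was -0.02. With the term 1 passed (0.8%, beside 2.13% of all genes), Vldlr (ENSMUSG00000024924, chr19:27216484-27254231, plus strand), a lipoprotein receptor gene known to be induced through PERK and ATF4. It ranged from 279.5 to 681 in VPA (median 436) and 132 to 350.1 in VPA_OCA (median 189.7), and 5 of 6 VPA_OCA libraries lay below every VPA library. The log2 fold change was -1.14 ± 0.26 (2.2-fold lower), with a limma adjusted p of 0.0605 with the group alone, 0.0035 with the term and 0.0044 with the replicate block. With the group alone it passed without VPA replicate 5 or without VPA_OCA replicate 1. Sec61b, a subunit of the translocation channel, measured 974 ± 102 in VPA and 1294 ± 286 in VPA_OCA (adjusted p 0.302 by limma), and Stt3b, a catalytic subunit of oligosaccharyltransferase, 1492 ± 88.3 and 1262 ± 125 (adjusted p 0.284). Sec61b passed with the term without VPA_OCA replicate 4 (adjusted p 0.0222), and in the authors' deposited table its adjusted p was 0.0215 and that of Vldlr 1.67e-05. These were the 2 of 117 other pathway genes that the authors call present with an adjusted p under 0.05 in that table (1.71%, beside 5.57%). Between the number sets, 54 of the 125 passed (43.2%, beside 25.1% of all genes), 31 higher and 23 lower in numbers 4 to 6, where 12.8% and 12.2% of all genes were.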

How the data were processed

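Liver RNA from 12 mice was sequenced from TruSeq libraries, per the labels' protocols, and the sample titles gave group and replicate number. Build GRCm38.p5 and edgeR (no version) are named, per the submitters' processing notes. For the aligner, counter, annotation and use of strand, the answer is not given in the sources used here. Per the file headers, the authors deposited a signal per gene and library called the normalized count, and FPKM, which served here for levels. The authors' table further holds p-values, log2 ratios, the GC fraction and other columns such as gene length, per the file headers. Some cells (88 adjusted p-values and 10536 log2 ratios among them) had been damaged by a decimal comma and were divided by 1000. After this repair, a Benjamini-Hochberg adjustment of the authors' p-values came within 0.538% of the deposited one. No column of per-sample values was left unused. Only 79.3% to 84.24% of values up to 20 steps of the smallest common value lay within 0.1 of a whole multiple, so reads were not recovered and no count model was run.

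The 19006 genes with a normalized count of 1 or more in 6 or more libraries were tested on log2(value + 1) by limma 3.58.1, run in R 4.3.3 (intensity trend, Benjamini-Hochberg over all genes, threshold 0.05). The fit had the group as its only term. A second fit had a term for numbers 1 to 3 against 4 to 6, and interaction and within-set fits were also made. The members, the gene lists and the number-set term were chosen with earlier results of these data known. Deviations from the group means correlated between same-numbered libraries of the 2 groups at 0.150 to 0.478, and the numbers were also used as a block. This pairing comes from the data, since the labels do not say what the numbers mark. The same-numbered library was the best match only for VPA 3 and 5 and for VPA_OCA 1 and 3. Every other best match was a different number of the same number set, so pairing by single number is not established. Libraries of one group differed pairwise by 21.98 to 260.56 times the variance of sampling, so none was a duplicate. P-values measure the spread between single mice, which in the fit with the group alone includes the difference between the number sets.

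Genes named with their ranges are those past a threshold in any of these fits and, per role, the 3 with the smallest p and the 3 with the highest FPKM. Of the other pathway genes, those past a threshold and the 3 with the smallest p were named. All other members are given by mean or range. Srp54a was left out of the lists because 2 gene IDs share its symbol. The fits were tested on simulated data: with 19245 genes and the group alone, recovery was 2% at a change of 1.25-fold, 42% at 1.5-fold, 70% at 2-fold and 96% at 4-fold, and 3 of 108 calls were false. No difference between the number sets was simulated. Alternatives covered filters, pseudocounts of 0.1 and 5, scalings, trend, weights, a GC correction (loess span 0.4), thresholds, the block and left-out libraries. Those for the fit with the number-set term were chosen after seeing the data. Of the 38 members, 36 have the same start and end in GENCODE M21, and 12 share exon bases with another gene. Figures were drawn with matplotlib 3.10.9.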

Additional observations from a re-analysis of the deposited data

Results flagged for a closer look

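Syvn1 measured 604.7 normalized counts in VPA replicate 1, while the other 5 VPA libraries lay between 832.7 and 914.8. The gap to the nearest of them was 0.735 of the whole range of the group, above Dixon's 95% critical value for 6 values. This was 1 of 76 groups of values examined, and chance alone marks about 1 in 20 such groups.

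Trib3 went in opposite directions in the number sets. All 3 VPA_OCA values lay above the VPA values within numbers 1 to 3 (log2 difference 0.77) and all 3 lay below them within numbers 4 to 6 (-0.41). The interaction was -1.18, with a limma adjusted p of 0.405, so that difference did not pass when tested over all genes.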

How the results depend on the processing

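With the group alone, the count of members called between the groups was 0 under all alternatives, leaving out each library included (0 to 0), except the following. It was 1 with the replicate block (Xbp1), 4 with the number-set term, 3 with that term and a GC correction, and 1 at a threshold of 0.10 (Chac1). Pairing by replicate number through the block changed no other member's call, and among the other pathway genes it raised the count from 0 to 1 (Vldlr). That count was also 1 with array weights, with the term, with the term and a GC correction, without VPA replicates 4 and 5 and at a threshold of 0.10, each time Vldlr, and 1 within numbers 4 to 6 (Fgf21). It was 0 to 1 with each library left out. In the fit with the term, the count of 4 became 2 with no filter (Canx and Xbp1), 2 with total-count scaling (Chac1 and Xbp1), 0 in limma without trend, 0 without the term, 0 at a threshold of 0.01, and 0 to 4 with each library left out, where the 4 without VPA replicate 5 held Creld2 in place of Chac1. For the number sets the count of 12 became 6 at a threshold of 0.01 and was 10 to 15 with each library left out. The interaction gave 0 throughout.

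Ppp1r15a and Atf3, also given with ranges, were outside the naming rule and are not covered here. Of the other 27 members named with ranges, 15 kept their direction between the groups under all alternatives of the fit with the group alone. The log2 differences that changed sign were small or had opposite signs in the number sets, and no interaction of group and number set passed. Within numbers 4 to 6 they were 0.037 (Pdia4), 0.10 (Pdia6), 0.10 (Syvn1), 0.034 (Sel1l), 0.082 (Eif2ak3), -0.084 (Creb3l3), 0.088 (Atf4), 0.28 (Atf5) and -0.41 (Trib3), and within numbers 1 to 3 -0.049 (Calr) and -0.047 (Derl1). Pdia6 was 0.015 with array weights and 0.066 without VPA replicates 4 and 5. Derl1 was -0.0021 with upper-quartile scaling. Creb3l3 was -0.0042 with median-ratio scaling, -0.0079 with upper-quartile scaling, -0.014 with array weights and -0.00075 with the term and a GC correction. With each library left out the ranges were -0.069 to 0.14 (Calr), -0.17 to 0.035 (Pdia6), -0.077 to 0.0072 (Edem1), -0.028 to 0.044 (Derl1), -0.26 to 0.0048 (Eif2ak3), -0.033 to 0.061 (Creb3l3), -0.11 to 0.034 (Atf4) and -0.022 to 0.38 (Trib3). The cause was not tested. At this depth and with 6 libraries a group, 42% of simulated 1.5-fold changes were recovered with the group alone, so smaller differences may go uncalled in that fit. The simulated data held no difference between the number sets, so this rate is not matched to the real libraries in that respect. Recovery is known by size of change only, so it does not show why a given member such as Canx went uncalled there.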
